A study of Oryza sativa with 4 samples.

Results

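The binding sites of OsbZIP69 (also labelled FD4) were set directly against those of OsbZIP77 (also labelled FD1), both from rice. The sites were the peaks deposited for each protein, 1107 for OsbZIP69 and 2059 for OsbZIP77, together 3166 of the 31683 peaks in the 4 lists of the series. A peak was called paired when the other protein had a centre on the same chromosome no more than 100 bp from its own. By that rule 815 OsbZIP69 peaks and 814 OsbZIP77 peaks were paired, while 292 OsbZIP69 peaks and 1245 OsbZIP77 peaks had no partner.

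FD-type bZIP proteins are the DNA-binding members of the florigen activation complex. Florigen, a protein made in the leaf, travels to the shoot apical meristem and acts there together with an FD protein on genes of the floral transition. bZIP proteins bind as dimers through a basic region next to a leucine zipper, and plant members usually recognise sequences built around an ACGT core. The title of the study puts OsFD4 in this role in rice, so the comparison asks how far FD4 and FD1 occupy the same genomic sites when each is offered the same DNA.

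DAP-seq (DNA affinity purification sequencing) captures purified, fragmented genomic DNA on a tagged transcription factor made in vitro and sequences what is retained. Nipponbare leaf DNA was used for every library, and the HALO-tagged proteins came from rabbit reticulocyte lysate, per the labels' protocols. The DNA carries no chromatin, and no florigen or other plant partner protein is named in the labels. The negative control was HALO-GST, the tag joined to glutathione S-transferase, with 194 peaks. There was 1 library per protein and no replicate, so no difference below has a replicate check. The intervals cover the counting of peaks alone, and the number of reads behind a peak is unknown. A peak list cannot show which protein was on the beads, so the labels are taken as given.

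Both lists covered all 12 chromosomes with intervals of equal width, and they differed in the spread of signal, the authors' value of strength per peak. OsbZIP69 signal ran from 9.2 through a median of 25.9 to 263, and OsbZIP77 signal from 9.5 through a median of 22 to 99. The strongest OsbZIP69 peak thus stood 10.2 times above its list's median and the strongest OsbZIP77 peak 4.5 times. The unit is not matched between libraries, so peaks are compared below by rank within a list. A place is that rank as a percent of the list's length, with the strongest peak nearest to 0, and a difference of 1 point is 1% of list length.

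Seen from the OsbZIP69 list, 73.6% of peaks were paired (exact 95% interval 70.9 to 76.2), and seen from the longer OsbZIP77 list, 39.5% were (37.4 to 41.7). Most pairs were unambiguous. Mutually nearest centres gave 804 one-to-one paired sites, and the remaining 11 OsbZIP69 and 10 OsbZIP77 peaks within the window were second centres beside a site already matched.

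At these sites the centres usually fell on the very same base. The distance was 0 bp at 702 of the 804 sites, or 87.3% (84.8 to 89.5), and 1 bp at 11 more. Beyond that the distances left a gap, with 5 sites from 2 to 10 bp apart, then 69 sites from 11 to 50 bp and 17 from 51 to 100 bp. The centres are positions set by the peak caller, and its part in the shared bases and in the gap was not tested. Where the centres differed, OsbZIP77 lay at the higher coordinate at 54 sites and at the lower at 48. Sites more than 10 bp apart were about as strong as those at 0 bp: their median signal was 27.5 against 29 for OsbZIP69, and 27 against 28 for OsbZIP77.

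**Figure D1:**
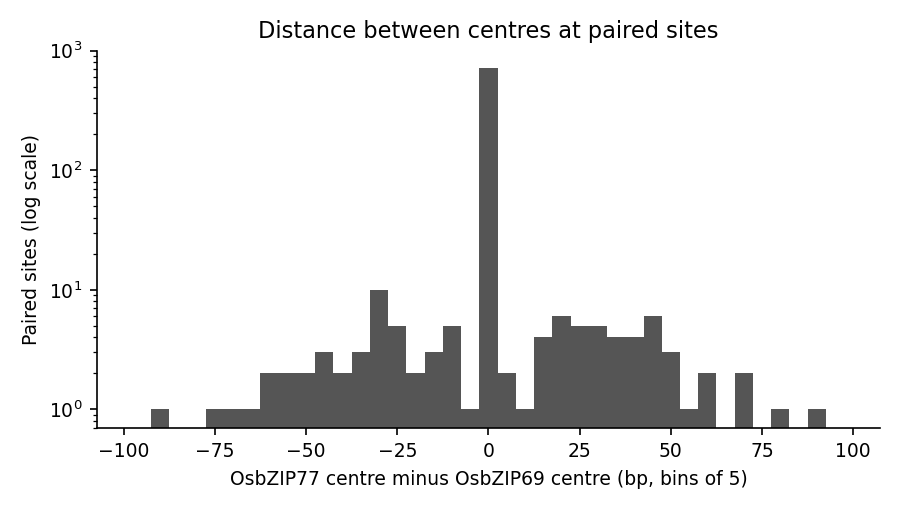
Paired sites by the distance from the OsbZIP69 centre to the OsbZIP77 centre in bp, in bins of 5 bp, with the number of sites on a log axis. The central bin includes the 702 sites with both centres on the same base, and the other distances lie on both sides of it.

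The threshold of 100 bp cut through few sites. The pair just inside it lay on chromosome 5, with an OsbZIP69 interval from 23735056 to 23735256 and an OsbZIP77 interval from 23734967 to 23735167, centred 89 bp apart and weak in both lists, with signals of 14.2 and 13.3. Just outside it, an OsbZIP69 peak of signal 18.9 on chromosome 8, from 23807666 to 23807866, lay 107 bp from an OsbZIP77 peak with a signal of 28. On chromosome 7, an OsbZIP77 peak of signal 15.9, from 29138874 to 29139074, lay 108 bp from an OsbZIP69 peak with a signal of 122. That OsbZIP69 peak was itself paired, at 0 bp, with another OsbZIP77 centre of signal 17.1. Few other unpaired peaks were near misses. Of those in the OsbZIP69 list, 7 of 292 had an OsbZIP77 centre within 500 bp, and 249, or 85.3%, had none within 10000 bp. For unpaired OsbZIP77 peaks the counts were 11 of 1245 within 500 bp and 1122, or 90.1%, with none within 10000 bp.

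Pairing went with peak strength in both lists. In the top decile of signal, 108 of 109 OsbZIP69 peaks were paired, or 99.1% (95.0 to 99.98), and in the lowest decile 41 of 110 were, or 37.3% (28.2 to 47.0). From the OsbZIP77 side the top decile was paired at 185 of 206 peaks, or 89.8% (84.8 to 93.6), and the lowest at 22 of 238, or 9.24% (5.88 to 13.7). The decline had a different course. OsbZIP69 peaks stayed at 78.1% or above through the sixth decile, whereas OsbZIP77 peaks were already at 55.0% in the third and 34.1% in the fifth. Lower shares on the OsbZIP77 side are partly built in, since its list was 1.86 times as long. With that list shortened to the length of the OsbZIP69 list, 57.0% of OsbZIP69 and 56.3% of OsbZIP77 peaks were paired. Deciles were not compared at equal length.

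**Figure D2:**
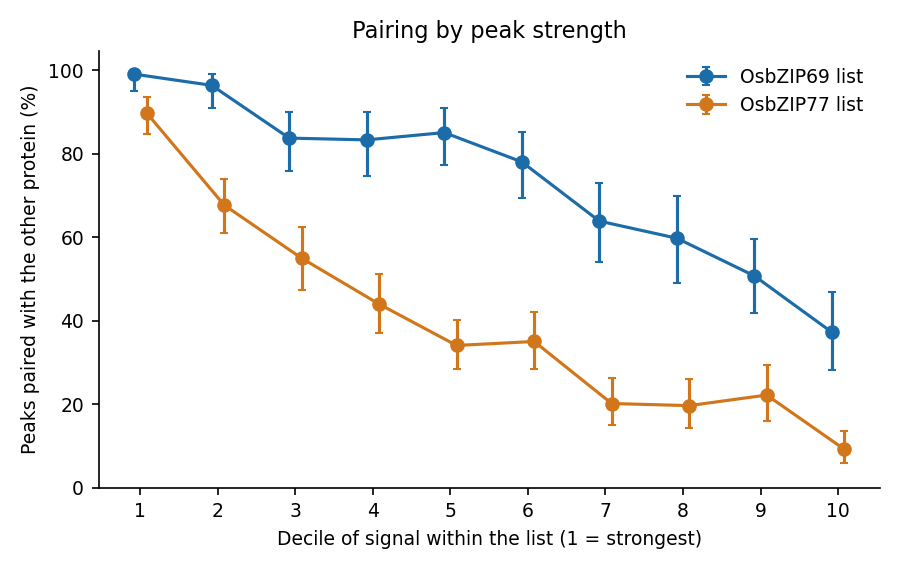
Share of peaks paired with the other protein, in percent, by decile of signal within each list (1 is the strongest), with exact 95% intervals for the counting of peaks. Shares run from 99.1% to 37.3% for OsbZIP69 and from 89.8% to 9.24% for OsbZIP77.

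Paired OsbZIP69 peaks had a median signal of 29 and a median place of 40.8%, against 18 and 75.7% for unpaired ones. For OsbZIP77 the medians were 28 and 27.7% for paired peaks, against 19 and 63.8% for unpaired ones. The 2 kinds of peak overlapped widely in strength: paired signals went down to 10 in each list, and unpaired signals reached 80 for OsbZIP69 and 69 for OsbZIP77. Unpaired peaks also lay nearer to the calling limit. Their −log10 q-value was under 3 at 54.8% (48.9 to 60.6) of OsbZIP69 and 55.8% (53.0 to 58.6) of OsbZIP77 peaks, against 163 of 815 and 163 of 814 paired peaks. In the upper 50% of the OsbZIP69 list by signal, 58 peaks still had no partner, beside 495 paired ones. For OsbZIP77 456 had none, beside 608 paired ones, in a list 1.86 times as long. Over the whole lists, 26.4% of OsbZIP69 and 60.5% of OsbZIP77 peaks were unpaired.

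The strongest sites of one protein were nearly always sites of the other, though not always among its strongest. All 50 of the 50 strongest OsbZIP69 peaks and 48 of the 50 strongest OsbZIP77 peaks were paired. Between the 50 strongest peaks of each list, however, 22 pairs formed, or 44% of each. With other numbers of peaks the share was 46% for the 100 strongest, 53% for the 200 strongest and 57.4% for the 1000 strongest of each list.

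The 5 sites that ranked best in both lists lay on chromosomes 7, 9, 10 and 12. The first was on chromosome 12, where the OsbZIP69 interval from 17464091 to 17464291 ranked 1 with a signal of 263 and the OsbZIP77 interval from 17464069 to 17464269 ranked 4 with 82, the centres 22 bp apart. A second site on chromosome 12, from 23129480 to 23129680 in both lists, ranked 4 for OsbZIP69 with a signal of 195 and 1 for OsbZIP77 with 99. These sites were thus the top peak of one list each and within the first 4 of the other. Chromosome 10 held the third, from 22328279 to 22328479, at ranks 5 and 6 with signals of 168 for OsbZIP69 and 80 for OsbZIP77. Chromosome 9 held the fourth, from 17092454 to 17092654, at ranks 10 and 2 with signals of 143.8 and 87. The fifth, on chromosome 7 from 11384541 to 11384741, stood at ranks 12 and 3 with signals of 141 and 84. At each of the 5 the OsbZIP69 signal was the larger, in unmatched units.

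In the upper 10% of both lists lay 76 paired sites. The 3 whose places were most alike included the sites on chromosome 12 from 17464091 and on chromosome 10 described above, with places 0.104 and 0.160 points apart. The closest of all was on chromosome 4 from 18301707 to 18301907, with a place of 9.35% for OsbZIP69 (signal 70) and 9.40% for OsbZIP77 (signal 37), a gap of 0.0482 points.

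Across the 804 paired sites the ranks were related but loosely so. Spearman's rho of signal was 0.55 and Pearson's r of log2 signal 0.60; these describe sites of 2 unrepeated libraries that share the same source DNA and the same regions, so no p is attached. At the 702 sites with both centres on the same base rho was 0.56, and at the 86 sites more than 10 bp apart it was 0.46. Of the upper 25% of the paired sites by OsbZIP69 signal, 117 sites, or 58.2% (51.1 to 65.1), were also in the upper 25% for OsbZIP77, and 12 were in its lower 25%. Of the 207 in the lower 25% for OsbZIP69, 94 were in the lower 25% for OsbZIP77 and 12 in its upper 25%.

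The ratio of OsbZIP69 to OsbZIP77 signal depended on strength. Its median over all paired sites was 1.10, with 10% of sites below 0.649 and 10% above 2.19. When the sites were split into 4 equal sets by their mean rank in both lists, the median ratio was 1.56 in the strongest set, 1.13 in the second, 1 in the third and 0.947 in the weakest. OsbZIP69 had the larger signal at 162 sites, or 80.6%, of the strongest set and at 77, or 38.3%, of the weakest. The wider spread of OsbZIP69 signal noted for the whole lists was therefore also present at the sites both proteins shared.

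**Figure D3:**
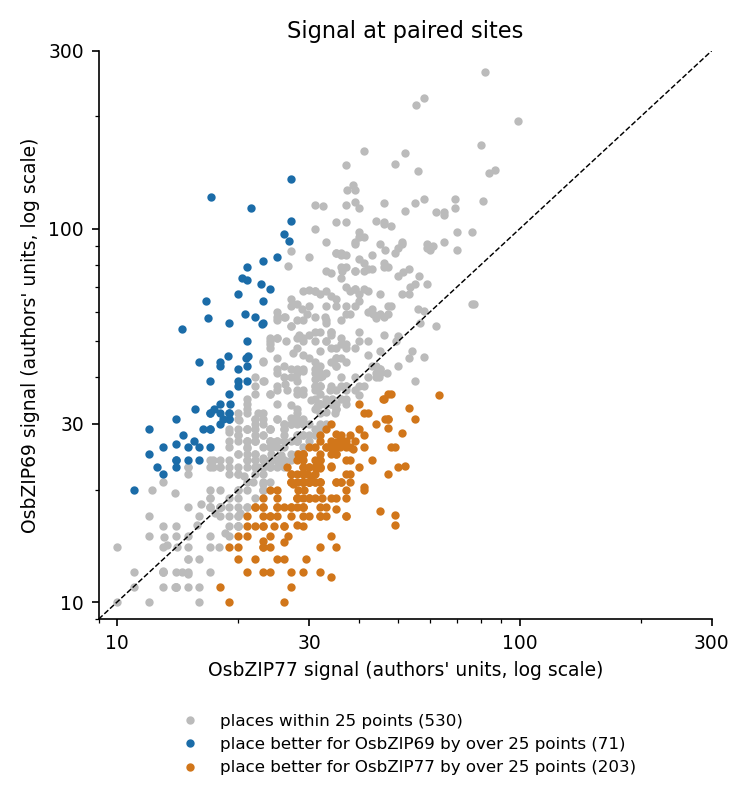
Signal of OsbZIP69 against signal of OsbZIP77 at the 804 paired sites, both in the authors' units on log axes, with a dashed line of equal values. Coloured points mark the 71 sites whose place was better for OsbZIP69, and the 203 better for OsbZIP77, by over 25 points; strong sites lie above the line more often than weak ones.

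OsbZIP77 had the better place by over 25 points at 203 sites, or 25.2%, and OsbZIP69 at 71, or 8.83%; at the other 530 sites the places were within that margin. The median difference was 8.22 points in favour of OsbZIP77, with an SD across sites of 25.8. This imbalance moves with the length of the lists. The OsbZIP77 list was 1.86 times as long, and its unpaired peaks stood mostly behind the paired ones. When places were taken among the 804 paired sites alone, the margin was passed at 149 sites for OsbZIP77, or 18.5%, and at 146 for OsbZIP69, or 18.2%. When the OsbZIP77 list was shortened to its 1107 strongest peaks, the counts were 99 for OsbZIP77 and 121 for OsbZIP69. The direction of the imbalance therefore rests on how the lists are scaled.

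**Figure D4:**
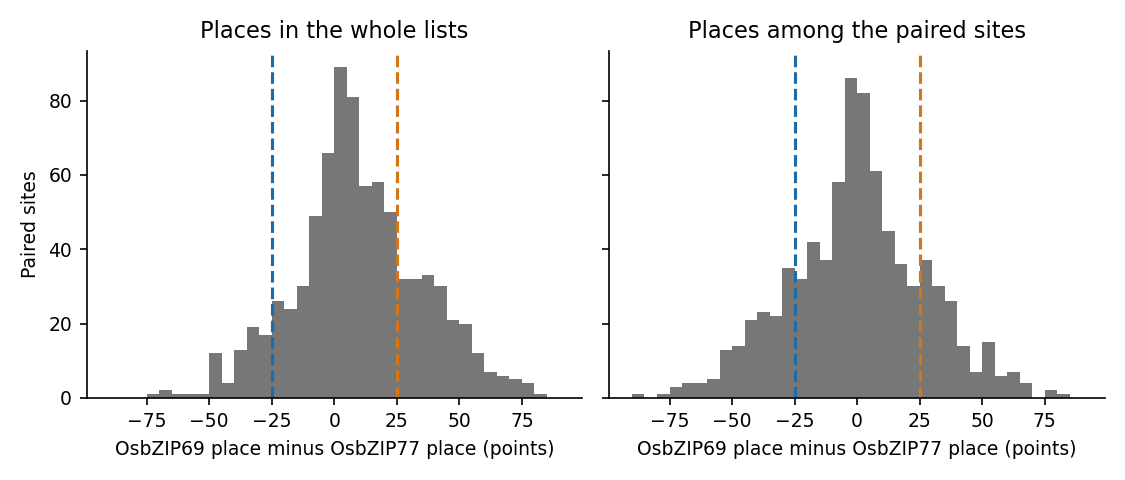
Histograms of the OsbZIP69 place minus the OsbZIP77 place, in points, at the 804 paired sites, with places taken in the whole lists (left) and among the paired sites alone (right). Dashed lines mark 25 points; the sites beyond them number 71 and 203 on the left and 146 and 149 on the right, and a value below 0 is a better place for OsbZIP69.

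The largest difference in favour of OsbZIP69 was on chromosome 7 from 29138766 to 29138966, where its signal of 122 ranked 17 (place 1.54%) and the OsbZIP77 signal of 17.1 ranked 1480.5 (71.9%). OsbZIP77 had a second centre 108 bp away with a signal of 15.9, so its binding there was recorded as a pair of weak peaks. The next site was on chromosome 5, with an OsbZIP69 interval from 3302982 to 3303182 of signal 54 and place 15.9% and an OsbZIP77 interval from 3303035 to 3303235 of signal 14.5 and place 84.2%. Here too OsbZIP77 had a further centre, with a signal of 18.5, 107 bp from the paired one. The choice between them rested on 1 bp, since they lay 53 and 54 bp from the OsbZIP69 centre. With the stronger one as partner the difference would be 50.4 points in place of 68.3, below that of the other sites named in this direction. The signals of both OsbZIP77 centres were not added together at the sites on chromosomes 7 and 5. Adding them would narrow both differences. The other sites named in this direction had no further centre of either list within 500 bp. They lay on chromosome 6 from 5220032 to 5220232 (signals 64 for OsbZIP69 and 16.6 for OsbZIP77), on chromosome 3 from 9263000 to 9263200 (57.7 and 16.8) and on chromosome 11 from 4743802 to 4744002 (44 and 16).

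In the opposite direction the largest difference was on chromosome 4 from 31665492 to 31665692, where OsbZIP77 had a signal of 34 (place 13.8%) and OsbZIP69 one of 11.7 (place 95.6%). On chromosome 3 from 30741694 to 30741894, OsbZIP77 ranked 62 with a signal of 49 and OsbZIP69 ranked 915 with 16.1. On chromosome 7 from 19446235 to 19446435, the signals were 32 for OsbZIP77 and 12 for OsbZIP69. In the OsbZIP77 list these sites stood at places of 13.8%, 3.01% and 17.3%, and in the OsbZIP69 list at 95.6%, 82.7% and 94.1%. The other sites were on chromosome 8, with an OsbZIP77 interval from 3512200 to 3512400 of signal 35 and an OsbZIP69 interval from 3512179 to 3512379 of signal 14, and on chromosome 6 from 1468872 to 1469072, with signals of 49 and 17.1. At the last one OsbZIP69 had a further centre 81 bp away with a signal of 16.9. Its signal was not added to that of the paired centre, which would narrow the difference there.

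Some of these differences were accompanied by neighbouring centres of the same protein. A further OsbZIP77 centre lay within 200 bp at 9 of the 71 sites better for OsbZIP69, or 12.7% (5.96 to 22.7), against 34 of all 804, or 4.23% (2.95 to 5.86). At the 203 sites better for OsbZIP77, a further OsbZIP69 centre lay within 200 bp at 6, or 2.96% (1.09 to 6.32), against the same 4.23% of all sites. With signal summed over centres chained at gaps of up to 200 bp, 797 groups held both proteins, and the counts past 25 points were 64 for OsbZIP69 and 205 for OsbZIP77.

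Peaks with a close neighbour in their own list were mostly paired. Of the 50 OsbZIP69 peaks with another OsbZIP69 centre within 200 bp, 45 were paired (interval 78.2% to 96.7%), against 72.8% of the 1057 others. For OsbZIP77 44 of 52 such peaks were paired, or 84.6% (71.9 to 93.1), against 38.4% of the 2007 others. Such peaks come as neighbours, 25 times in the OsbZIP69 list and 26 times in the OsbZIP77 list. The intervals count linked peaks as separate, so they are likely too narrow. Peaks with and without a neighbour were not compared at equal strength. In 10 groups each protein had a pair of centres, and in 6 of these both centres fell on the same bases in both lists. The stronger centre was on the same side for both proteins in 4 groups and on opposite sides in 6.

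These doublets show differences in signal over short distances; they were chosen after their values were seen. On chromosome 1 both proteins had centres at 11237514 and 11237608. OsbZIP69 signal was 20.3 at the first and 55.7 at the second, and OsbZIP77 signal was 41.1 at the first and 22.9 at the second. The stronger of the pair was thus the other centre in each library. On chromosome 11, with centres at 3303152 and 3303208, the signals were 34.7 and 79.3 for OsbZIP69 and 30.4 and 26.6 for OsbZIP77. On chromosome 12, with centres at 24465097 and 24465191, both proteins had the stronger peak at the second, with 45.5 and 159.5 for OsbZIP69 and 21.1 and 51.9 for OsbZIP77. How far the caller's division of reads between neighbouring centres contributes was not tested. All 50 of those OsbZIP69 peaks carried a signal that was not a whole number, and so did 47 of those 52 OsbZIP77 peaks, against 12.6% and 12.7% of the whole lists.

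The strongest OsbZIP69 peak without a partner lay on chromosome 11 from 5409898 to 5410098. Its signal of 80 ranked 78, its −log10 q-value was 18.09, and the nearest OsbZIP77 centre was 253560 bp away. It was the only unpaired OsbZIP69 peak in the top decile. The next ones were on chromosome 6 from 26635389 to 26635589 (signal 62), on chromosome 2 from 24211905 to 24212105 (signal 54), on chromosome 9 from 11809843 to 11810043 (signal 51) and on chromosome 2 from 9825562 to 9825762 (signal 48). In that order their −log10 q-values were 7.06, 8.25, 7.56 and 9.54. These were exceeded by 27.5%, 21.9%, 24.8% and 19.2% of the list. Each of the 5 was at least 24374 bp from any OsbZIP77 centre and at least 108398 bp from any HALO-GST centre.

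The OsbZIP77 peaks without a partner began higher in their list. The strongest was on chromosome 12 from 8532507 to 8532707, at rank 13 and signal 69, but with a −log10 q-value of 3.46, which 48.0% of the list exceeded; it was centred 572 bp from a HALO-GST centre. The third strongest was on chromosome 1 from 39111644 to 39111844. Signal was 47 there and the −log10 q-value 3.77, and the nearest control centre was 48 bp off. Both combined a high signal with a low −log10 q-value and had a control centre close by. The second, on chromosome 9 from 17428552 to 17428752, combined a signal of 51 with a −log10 q-value of 7.16 and was 76481 bp from the control. The remaining ones were on chromosome 5 from 17720602 to 17720802 (signal 46, −log10 q-value 8.41) and on chromosome 4 from 12537904 to 12538104 (signal 44, −log10 q-value 6.75). For those last 3 the nearest OsbZIP69 centre was 73320, 385465 and 509324 bp away.

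Few peaks of either list lay near a control peak. Within 1000 bp of a HALO-GST centre lay 2 of 292 unpaired OsbZIP69 peaks and 3 of 1245 unpaired OsbZIP77 peaks, against 0 of 815 and 0 of 814 paired peaks, which allows shares of up to 0.368% and 0.369% (3 counts of the total). Within 10000 bp lay 10 of 814 paired and 15 of 1245 unpaired OsbZIP77 peaks, or 1.23% and 1.20%. For OsbZIP69 the counts were 10 of 815 paired and 7 of 292 unpaired peaks, or 1.23% (0.590 to 2.24) and 2.40% (0.969 to 4.88). Per the file names, both bZIP lists were called against a negative control; its effect on these counts was not tested.

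Along the genome, the balance of the 2 lists differed by chromosome. OsbZIP77 had 1.86 peaks for each OsbZIP69 peak in all, from 1.53 on chromosome 11 (151 against 99) and 1.61 on chromosome 6 (169 against 105) to 2.19 on chromosome 1 (298 against 136) and 2.21 on chromosome 2 (219 against 99). The share of OsbZIP77 peaks with a partner was 47.0% (38.9 to 55.3) on chromosome 11 and 35.2% on chromosomes 1 (29.8 to 41.0) and 2 (28.8 to 41.9). A lower share is partly built in where OsbZIP77 peaks are more numerous per OsbZIP69 peak. The lowest share was on chromosome 9, at 34.3% (25.1 to 44.6), where the ratio was 1.83. Chromosome 4 had 37.3% (29.6 to 45.6) at a ratio of 1.69. For OsbZIP77 the interval of every chromosome held the 39.5% of the whole list.

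OsbZIP69 peaks were paired least often on chromosome 4, at 55 of 89, or 61.8% (50.9 to 71.9), and next on chromosome 9, at 36 of 54, or 66.7% (52.5 to 78.9). The highest share was on chromosome 5, at 80 of 102, or 78.4% (69.2 to 86.0). The interval of every chromosome but one held the 73.6% of the whole list; the exception was chromosome 4, the lowest of 12. On chromosome 4, 34 of 40 OsbZIP69 peaks in the upper 50% by signal were paired, or 85.0%, and 21 of 49 in the lower 50%, or 42.9%. Over all chromosomes the share in the upper 50% ran from 78.2% on chromosome 11 to 97.4% on chromosome 10. In the lower 50% it ran from that 42.9%, with 44.4% on chromosome 9 next, to 66.7% on chromosome 8. The median signal of OsbZIP69 peaks on chromosome 4 was 23.5, against 25.9 in the whole list. Chromosomes 1 and 3 had lower medians, of 21.5 and 23, with 75.7% and 71.3% of peaks paired. The part of strength in the share of chromosome 4 was not tested.

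**Figure D5:**
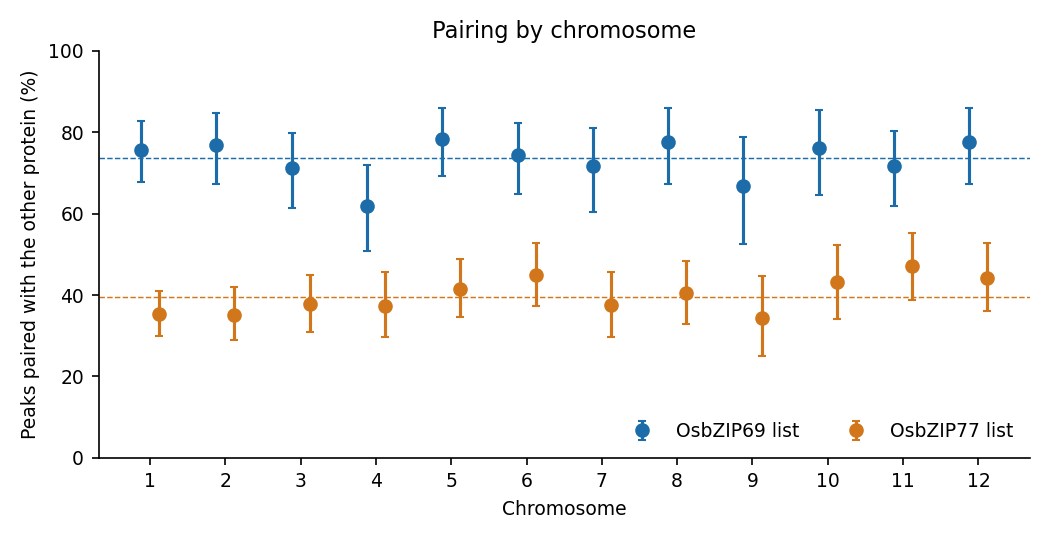
Share of peaks paired with the other protein, in percent, on each of the 12 chromosomes, with exact 95% intervals for the counting of peaks and dashed lines at the shares of the whole lists. OsbZIP69 shares run from 61.8% on chromosome 4 to 78.4% on chromosome 5, and OsbZIP77 shares from 34.3% on chromosome 9 to 47.0% on chromosome 11.

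Within chromosomes, the share of OsbZIP69 peaks with a partner ran over a wider range than that of OsbZIP77 peaks. Each chromosome was divided into 5 equal parts, from its first base to the end of the furthest peak of either list, in the coordinate order of the files. Both lists were densest at the ends: the first and last parts held 22.9% and 27.4% of OsbZIP69 peaks and 23.1% and 29.4% of OsbZIP77 peaks. OsbZIP69 peaks were paired at 62.2% (54.3 to 69.6) in the second part and at 79.2% (74.2 to 83.6) in the last. OsbZIP77 shares lay between 37.0% (31.2 to 42.9) in the second part and 40.3% (35.9 to 44.9) in the first. The parts also differed in strength, with a median OsbZIP69 signal of 24 in the second and 27 in the last, and its part in the difference was not tested. Among OsbZIP69 peaks in the lower 50% by signal, 39 of 89, or 43.8% (33.3 to 54.7), were paired in the second part and 87 of 133, or 65.4% (56.7 to 73.4), in the last. In the upper 50% the counts were 63 of 75 (interval 73.7% to 91.4%) and 153 of 170 (84.5% to 94.1%). The difference between the lists in this respect was not tested.

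At the scale of 1 Mb, the 365 whole intervals held a median of 3 OsbZIP69 and 5 OsbZIP77 peaks. Across intervals, Spearman's rho between the counts of the lists was 0.69. This is partly built in, since the 804 paired sites count in both lists, and no p is given. Between the counts of unpaired peaks in each list, rho over the same intervals was 0.064. That value rests on low counts: unpaired OsbZIP69 peaks had a median of 1 per interval and were absent from 173 intervals. It therefore cannot tell whether the unpaired peaks of the lists lie in different regions. The interval with the most paired sites was on chromosome 12 from 3 to 4 Mb, where all 10 OsbZIP69 peaks were paired and 4 of 14 OsbZIP77 peaks were not. The highest count of unpaired OsbZIP77 peaks was on chromosome 1 from 8 to 9 Mb, where 11 of 13 had no partner and OsbZIP69 had 3 peaks. The highest count of unpaired OsbZIP69 peaks was on chromosome 4 from 27 to 28 Mb, where each list had 7 peaks and 5 of each were unpaired. These intervals were picked as extremes of the 365. In the whole lists 26.4% of OsbZIP69 and 60.5% of OsbZIP77 peaks were unpaired. OsbZIP77 peaks stood without any OsbZIP69 peak in 33 intervals and OsbZIP69 peaks without any OsbZIP77 peak in 7, of which those on chromosome 4 from 0 to 1, 2 to 3 and 7 to 8 Mb held 2 OsbZIP69 peaks each, as did the stretch between 8 and 9 Mb of chromosome 7.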

How the data were processed

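Leaf genomic DNA of Nipponbare rice was incubated with HALO-tagged proteins and sequenced, with 1 library per protein. Bowtie2 2.2.8 was the aligner, per the submitters' processing notes. The names of the deposited files record GEM as the peak caller, a negative control for both bZIP lists and none for HALO-GST. Unlike the others, the OsbZIP77 file is not named for reticulocyte lysate. The names also seem to say that multiply mapped reads were dropped, which no label states. The genome build is named in neither the labels nor the files used here. The signal is the value the authors deposited per peak, in a unit not given and with no scaling between libraries stated. In both bZIP lists the lowest deposited −log10 q-value is 2.00.

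From these lists, centres were paired within 100 bp, ranks were taken by signal within each list with tied values at their mean rank, and a place is the rank as a percent of list length. One-to-one paired sites are mutually nearest centres. The code was tested on simulated lists. The 95% intervals are exact (Clopper-Pearson) and cover only the counting of peaks, and a count of 0 is given with the share that 3 counts would make. Read numbers were not analysed here, so depth is unknown. With 1 library per protein and peaks that are no replicates, no p-value is given.

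Sites took the place of named genes: the 5 paired sites with the best worst place, the 5 with the largest place difference for each protein, the 3 most alike in the upper 10% of both lists, the 5 strongest peaks of each list without a partner, and the pairs on either side of 100 bp. Members, lists and rules were chosen with earlier results of these data known. No genome of the same build was used here, so planned motif searches and gene lists were not run, and no gene is assigned to a site. Python 3.11.15, numpy 2.4.6, pandas 2.3.3, scipy 1.17.1 and matplotlib 3.10.9 were used. The alternatives were other windows (50, 200 and 500 bp), the 50% of each list with the better q-values, lists of equal length, removal of peaks within 1000 bp of a HALO-GST centre, ranks by q-value or among paired sites alone, and signal summed over neighbouring centres.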

Additional observations from a re-analysis of the deposited data

How the results depend on the processing

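Of 97 alternatives for 43 results, 70 were planned and 27 were added after seeing the data. None changed a sign, but counts and shares cannot be negative, so for them no change of sign was possible. In all, 84 stayed within 1.5 times a count, median or rho, or within the interval of a share. Windows of 50 to 500 bp moved the paired share of OsbZIP69 peaks between 71.5% and 74.3%, and all 24 shares by chromosome stayed within their intervals at 500 bp. Keeping in each list the 50% of peaks with the best q-values left, by construction, 553 and 1029 peaks. It gave 405 paired sites, 36 and 115 sites past 25 points for OsbZIP69 and OsbZIP77, and a median place of paired minus unpaired OsbZIP69 peaks of -18.1 points, against -35.0 in the whole list. Shortening the OsbZIP77 list to 1107 peaks, with ties at a signal of 21 ordered by q-value, gave paired shares of 57.0% and 56.3%. The sites past 25 points then numbered 121 for OsbZIP69 and 99 for OsbZIP77. That reversed the imbalance of 71 and 203 in the whole lists, whose direction was not scored as a result. Places among paired sites alone gave 146 sites for OsbZIP69. Ranking by q-value lowered rho to 0.42. At the 10 sites named for large differences, which were chosen for them, ranking by q-value shrank the gap by over 1.5 times at 4, to -35.1, -26.2 and -26.8 points on chromosomes 5, 3 and 11 and to 46.8 on chromosome 6. No paired analysis was possible because there was 1 library per protein, and no replicate could be left out. Unknown depth limits any statement on the absence of a peak from either list.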
